A study of Mus musculus with 16 samples.

Results

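The genes described here are 10 parts of the Notch pathway, namely the receptors Notch1, Notch2 and Notch3, the ligands Dll1, Dll4 and Jag1, the DNA-binding effector Rbpj and the target genes Hey1, Heyl and Hes1. They were found by their gene name in the scanner files, which gave 14 probes of 55681 on the array and 10 gene names of 34650. RNA came from myoblasts of male C57Bl/6J mice aged 11 to 13 weeks, either dispersed (grown off the fiber) or myofiber-associated (cultured on explanted fibers and stripped from them with trypsin), each lysed 48 or 72 hr after isolation. There were 4 one-color Agilent arrays per culture and time, 16 in all, with 1 mouse behind each dispersed sample, 2 mice behind each myofiber-associated preparation, and 2 preparations pooled on the array called here replicate 4 of the myofiber-associated 48-hr group. Replicate numbers only name the arrays. No genotype, transgene or drug sets the groups apart, and the dispersed 48-hr arrays serve as the base of the dispersed time course as the myofiber-associated 48-hr arrays do of the other.

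Notch receptors are membrane proteins that are cut when a ligand on a neighboring cell binds them, and the freed intracellular part joins RBPJ on DNA to switch on target genes such as those of the Hes and Hey families, which are themselves transcriptional repressors. In skeletal muscle the pathway is known for keeping satellite cells, the stem cells of the fiber, quiescent and undifferentiated. The same pathway is known in blood vessels, where DLL4, JAG1, NOTCH4 and the Hey proteins act in endothelial cells and NOTCH3 in the mural cells around them.

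Each probe is a 60-base oligonucleotide, and its position is that of the mouse build mm9 given in the scanner files. The first 30 bases are printed for the probes of the 5 genes that passed the test within a culture and for both probes of Notch1 and of Rbpj, which gave differing readings. No base is in capitals.
Notch3 (chr17:32257848-32257907, minus strand): gcctaatagaaatgtttttaggctgttttt
Dll4 (chr2:119160779-119160838, plus strand): tttgcccagactccatcctcacagctgggc
Jag1 (chr2:136907433-136907492, minus strand): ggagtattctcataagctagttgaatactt
Hey1 (chr3:8663432-8663491, minus strand): gatttgggctctaaaagtattgttttacag
Heyl (chr4:122926975-122927034, plus strand): aatcattttcttcaaggtctttgcccttct
Notch1, brighter probe (chr2:26319440-26319499, minus strand): tcctgcagtggagggggccttgagacaggc
Notch1, dimmer probe (chr2:26314630-26314689, minus strand): ttgcttctttccaaaatcgaaaagaaagaa
Rbpj, brighter probe (chr5:54048503-54048562, plus strand): tttgtagaaaaaggaatctgctcaattcca
Rbpj, dimmer probe (chr5:54044777-54044836, plus strand): acacaaacagcgaggggaattacacaaatg

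Signals are given on the log2 scale after normalization, and a value of one gene is not set against that of another, because probes differ in brightness. A change is the mean log2 signal at 72 hr minus that at 48 hr, tested two-sided with limma at a threshold of 0.01 on the p adjusted by Benjamini-Hochberg over the 20209 genes that passed a filter on low signal. All 10 genes passed the filter. The arrays read between 54.0% and 63.5% of probes as well above background, no spot was saturated, and all 12 myoblast markers, Myod1, Myf5, Pax7 and Des among them, were well above background on all 16 arrays. All dispersed arrays lay on 1 slide and all myofiber-associated arrays on another, so a difference in level between the cultures cannot be told apart from one between slides. On both slides the 72-hr arrays filled the first 2 columns and the 48-hr arrays the others, so time and column cannot be told apart either. The p-values measure the spread between these preparations, and the exact permutation test of 4 against 4 arrays cannot go below 0.0286, two-sided.

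Markers of other cells were present and moved with time. Of 14 endothelial markers, all were well above background on every dispersed array and 13 to 14 on the myofiber-associated arrays. From 48 to 72 hr 13 of the 14 fell in dispersed myoblasts (median log2 change -1.42) and 10 fell in myofiber-associated myoblasts (median -2.41). Among them Pecam1 changed by -1.73 and -1.35, Cdh5 by -1.45 and -2.49, and Tek by -2.18 and -1.57, while Kdr changed by -0.38 and 0.08, the last with an adjusted p of 0.542. The log2 of their summed signal ran from 17.04 to 17.48 in dispersed myoblasts at 48 hr, from 15.58 to 16.11 at 72 hr, from 14.34 to 15.54 in myofiber-associated myoblasts at 48 hr and from 13.53 to 13.82 at 72 hr, so that no range met another. Fibroblast markers also moved in myofiber-associated myoblasts, where 3 of 9 tested fell (median -1.19) and the summed log2 signal ran from 16.31 to 17.55 before (48 hr) and from 15.28 to 16.05 after (72 hr), without overlap. In dispersed myoblasts 2 of the 9 fell (median -0.39). Differentiating muscle markers had summed signals of 19.80 to 20.18 and 17.88 to 19.85 in myofiber-associated myoblasts at 48 and 72 hr, with 2 of 12 rising, none falling and a median of -0.81. Their sums were 13.93 to 14.85 and 13.83 to 14.25 in dispersed myoblasts, where 5 rose and 2 fell. A summed signal follows the brightest genes of its list, and single muscle markers changed by -2.06 to 6.73 in myofiber-associated myoblasts. The sum thus does not measure how far the cells had differentiated, and its source was not tested. In bulk RNA, fewer cells of a type and less RNA per cell cannot be told apart.

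In dispersed myoblasts 2 of the 10 genes fell and none rose between 48 and 72 hr. They were Dll4 and Hey1, in a comparison that called 13.8% of all genes, 6.35% as lower and 7.4% as higher. The groups did not overlap for 5 of the 10, Notch1, Dll1, Dll4, Hey1 and Rbpj, as for 31.2% of all genes. The median log2 change of the 10 genes was -0.28, against 0.02 over all genes tested. At an adjusted p under 0.05, which 26.9% of all genes met, Notch1 and Heyl were also lower and Dll1 and Rbpj higher, 6 genes in all. In myofiber-associated myoblasts 1 of the 10 genes rose, Notch3, and 3 fell, Dll4, Jag1 and Heyl, where 5.5% of all genes were called, 3.74% as higher and 1.77% as lower. These 4 were also the genes whose groups did not overlap, as was so for 26.3% of all genes. The median change of the 10 genes there was 0.00, against 0.06 over all genes. With Dll1, 5 of the 10 met an adjusted p under 0.05, as did 22.6% of all genes.

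**Figure D1:**
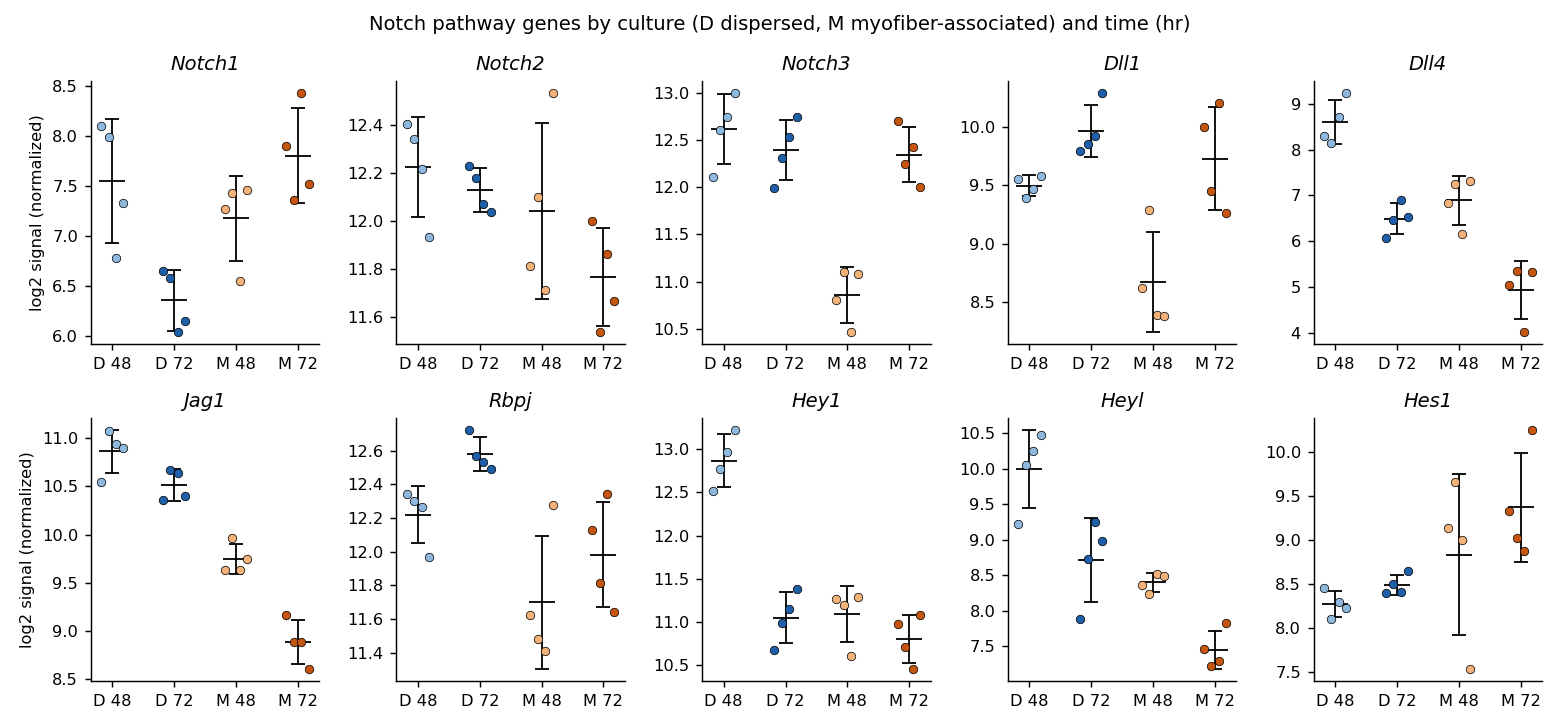
Normalized log2 signal of the 10 genes, 1 point per array, in dispersed (D) and myofiber-associated (M) myoblasts at 48 and 72 hr, with the mean and SD of 4 arrays in black and a scale of its own for each gene. Notch3 stands lowest in myofiber-associated myoblasts at 48 hr, Hey1 stands highest in dispersed myoblasts at 48 hr, and Dll4 is lower at 72 than at 48 hr in both cultures.

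Among the receptors Notch3 rose in myofiber-associated myoblasts and not detectably in dispersed myoblasts. In myofiber-associated myoblasts its log2 signals were 10.80, 11.10, 10.46 and 11.08 at 48 hr and 12.70, 12.25, 12.43 and 12 at 72 hr, so that all arrays at 72 hr lay above all at 48 hr. The rise was 2.80-fold (log2 change 1.49, SE 0.19, adjusted p = 0.00283). In dispersed myoblasts the signals were 12.11, 12.61, 12.74 and 13.00 at 48 hr and 11.99, 12.31, 12.53 and 12.75 at 72 hr, which overlap, with a change of -0.22 (95% interval -0.72 to 0.28, adjusted p = 0.498). The difference of the changes, dispersed minus myofiber-associated, was -1.71 (SE 0.30, adjusted p = 0.0039). Notch3 is known as the receptor of mural cells, and the study also lists it with genes of satellite cell stemness and self-renewal. The 9 pericyte and smooth muscle markers, Notch3 left out, had a summed log2 signal of 13.41 to 13.76 in myofiber-associated myoblasts at 48 hr and 13.25 to 13.74 at 72 hr, ranges that overlap, and 1 of the 9 fell there. Of these markers Rgs5 changed by -0.23, Pdgfrb by -1.0, Cspg4 by -0.88 and Kcnj8 by -1.76 there, each short of the threshold, and 3 others of the 9 lay above 0, by up to 1.03, as Notch3 did. The summed log2 signal of the muscle markers in myofiber-associated myoblasts was 19.80 to 20.18 at 48 hr. At 72 hr it read 18.27, 19.45, 17.88 and 19.85, in the order of the arrays above. The part of the muscle markers or of the pericyte and smooth muscle markers in the rise of Notch3 was not tested. Nor was their part in the changes of Notch1, Dll1 and Rbpj given next.

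Notch1, the receptor best known for holding satellite cells in quiescence, had log2 signals of 8.10, 7.99, 6.77 and 7.33 in dispersed myoblasts at 48 hr and 6.65, 6.58, 6.04 and 6.15 at 72 hr. All 4 arrays at 72 hr lay below those at 48 hr (exact permutation p = 0.0286), with a log2 change of -1.19 (SE 0.30) whose adjusted p of 0.0217 missed the threshold. In myofiber-associated myoblasts the signals were 7.26, 7.42, 6.55 and 7.46 at 48 hr and 7.90, 7.36, 8.43 and 7.51 at 72 hr, a change of 0.63 (SE 0.28, adjusted p = 0.126) with overlapping groups. The changes had opposite signs, and their difference of -1.82 (SE 0.43) had an adjusted p of 0.0167. These values come from the brighter of both Notch1 probes. The dimmer probe was well above background on 12 of 16 arrays and missed the filter. These were all the dispersed arrays and 2 of the 4 myofiber-associated arrays at each time. Its log2 signals were 5.26, 5.64, 6.67 and 5.66 in dispersed myoblasts at 48 hr and 4.44, 5.0, 5.01 and 4.93 at 72 hr. In myofiber-associated myoblasts it read 3.65, 4.20, 2.08 and 4.17 at 48 hr and 4.03, 3.31, 4.32 and 3.56 at 72 hr, so that it too was lower at 72 hr in dispersed myoblasts on every array.

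Notch2, a receptor that satellite cells also carry, changed little beside its spread. Over 4 arrays its log2 signal (mean ± SD) was 12.23 ± 0.21 in dispersed myoblasts at 48 hr and 12.13 ± 0.091 at 72 hr, a change of -0.10 (95% interval -0.34 to 0.15). In myofiber-associated myoblasts it was 12.04 ± 0.37 at 48 hr and 11.77 ± 0.20 at 72 hr, a change of -0.28 (95% interval -0.71 to 0.16). The groups overlapped in both cultures. A dimmer probe of Notch2 changed by -0.25 and -0.39, the same sign as the brighter one.

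The ligands moved in different directions. Dll4, a ligand of the Delta type known from endothelial tip cells, fell in both cultures. Its log2 signals in dispersed myoblasts were 8.30, 8.15, 8.70 and 9.23 at 48 hr and 6.08, 6.47, 6.90 and 6.52 at 72 hr, a 4.30-fold fall (log2 change -2.10, SE 0.26, adjusted p = 0.000884). In myofiber-associated myoblasts they were 6.83, 7.26, 6.17 and 7.32 at 48 hr and 5.04, 5.36, 4.02 and 5.33 at 72 hr, a 3.87-fold fall (log2 change -1.95, SE 0.36, adjusted p = 0.0095). Neither culture's groups overlapped, and the difference between the falls was -0.15 (95% interval -1.15 to 0.85). At 72 hr the probe was well above background on 3 of the 4 myofiber-associated arrays, and the reading of 4.02 is from the array where it was not. Without any 1 of the 8 myofiber-associated arrays the adjusted p was 0.0105 to 0.0308, so that the call there was lost each time, while that in dispersed myoblasts held each time (0.00136 to 0.00406). Dll4 and the endothelial markers fell together in both cultures. The part of these and of the fibroblast and muscle markers in the falls of Dll4, and in those of Jag1, Hey1 and Heyl given next, was not tested. With normexp background correction the fall in myofiber-associated myoblasts was smaller, -0.99 on the log2 scale and still past the threshold, against -1.56 in dispersed myoblasts.

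Jag1, a ligand of the Serrate type, fell in myofiber-associated myoblasts. Its log2 signals there were 9.64, 9.97, 9.63 and 9.75 at 48 hr and 9.16, 8.88, 8.89 and 8.61 at 72 hr, all lower at 72 hr, a 1.82-fold fall (log2 change -0.86, SE 0.14, adjusted p = 0.00587). In dispersed myoblasts they were 10.55, 11.07, 10.94 and 10.90 at 48 hr and 10.36, 10.67, 10.64 and 10.40 at 72 hr, where the groups overlap (change -0.35, SE 0.12, adjusted p = 0.0736). The difference of 0.51 between the cultures had an adjusted p of 0.0754.

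Dll1, the Delta ligand known to be made by differentiating myogenic cells, was higher at 72 hr in both cultures without passing the threshold. In dispersed myoblasts it read 9.56, 9.39, 9.47 and 9.58 at 48 hr and 9.79, 9.85, 9.92 and 10.29 at 72 hr, groups that do not overlap (change 0.47, SE 0.11, adjusted p = 0.0158). In myofiber-associated myoblasts it read 8.62, 9.29, 8.38 and 8.38 at 48 hr and 10.00, 9.45, 10.20 and 9.26 at 72 hr, groups that overlap by the value of 9.29 (change 1.06, SE 0.27, adjusted p = 0.0289). This probe is spotted 10 times on each array and its spots were averaged. A further Dll1 probe was well above background on 0 of 16 arrays. It entered only the alternative that takes the mean of all probes.

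**Figure D2:**
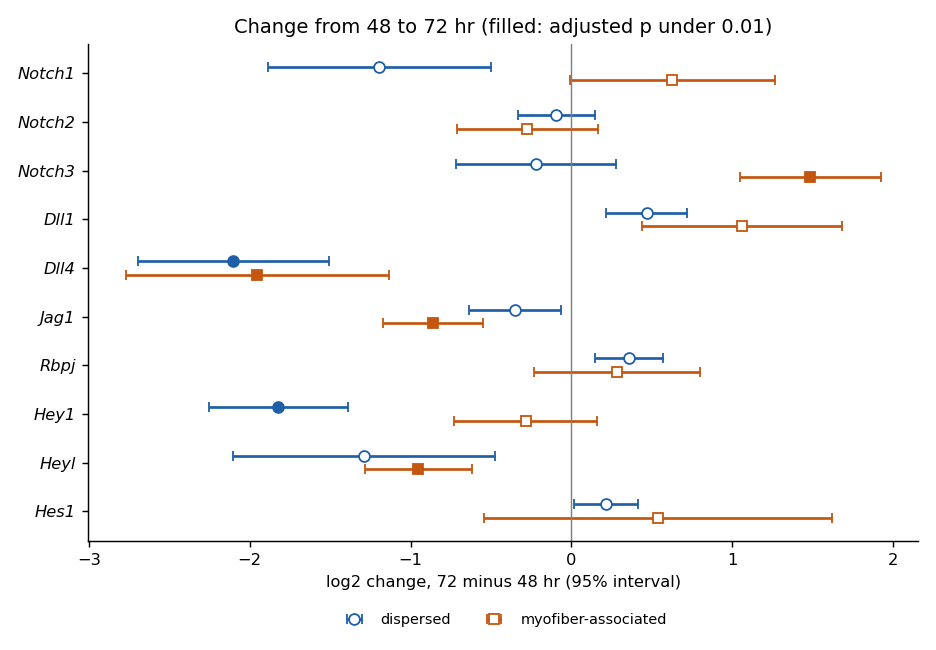
Log2 change from 48 to 72 hr of the 10 genes with its 95% interval from limma, in dispersed (blue circles) and myofiber-associated myoblasts (orange squares), filled where the adjusted p was under 0.01. Hey1 (-1.82 and -0.28) and Notch3 (-0.22 and 1.49) differ between the cultures, and Dll4 (-2.10 and -1.95) is low in both.

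Rbpj encodes the DNA-binding protein through which all Notch receptors act. Its brighter probe read 12.34, 12.30, 12.26 and 11.97 in dispersed myoblasts at 48 hr and 12.72, 12.57, 12.53 and 12.49 at 72 hr, a change of 0.36 (SE 0.09, adjusted p = 0.0228). In myofiber-associated myoblasts it read 11.62, 11.48, 11.41 and 12.28 at 48 hr, the highest on the pooled array, and 12.13, 11.81, 12.34 and 11.64 at 72 hr (change 0.28, SE 0.22, adjusted p = 0.366). The dimmer probe, well above background on all 16 arrays, changed by 0.08 in the dispersed and by -0.02 in the other culture. The size of the Rbpj change thus depended on the probe read.

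Among the target genes, Hey1 fell in dispersed myoblasts. This gene of the Hairy and enhancer-of-split family read 12.51, 12.77, 12.97 and 13.23 in dispersed myoblasts at 48 hr and 10.67, 10.99, 11.15 and 11.38 at 72 hr. The fall was 3.54-fold with no overlap (log2 change -1.82, SE 0.19, adjusted p = 0.000376). In myofiber-associated myoblasts the signals were 11.26, 11.20, 10.60 and 11.28 at 48 hr and 10.97, 10.71, 10.45 and 11.07 at 72 hr, which overlap (change -0.28, 95% interval -0.73 to 0.16, adjusted p = 0.297). The myofiber-associated values at both times and the dispersed values at 72 hr all lay between 10.45 and 11.38, and those of dispersed myoblasts at 48 hr lay above them. The difference of the changes was -1.54 (SE 0.28, adjusted p = 0.0047).

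Heyl, a further Hey gene, was lower at 72 hr in both cultures. Its log2 signals in myofiber-associated myoblasts were 8.37, 8.23, 8.51 and 8.50 at 48 hr and 7.46, 7.22, 7.30 and 7.82 at 72 hr, a 1.94-fold fall without overlap (log2 change -0.95, SE 0.14, adjusted p = 0.00515). In dispersed myoblasts they were 9.22, 10.06, 10.25 and 10.48 at 48 hr and 7.88, 8.73, 9.26 and 8.99 at 72 hr. The mean change there was larger, -1.29, but so was its SE of 0.35, the groups overlapped, and the adjusted p was 0.0295. With the row on the slide as a block, which takes out a shift shared by arrays of 1 row, the dispersed adjusted p was 0.00729. The change of Heyl did not differ between the cultures beyond its error (difference -0.34, 95% interval -1.19 to 0.52).

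Hes1, the Hes gene most often read as a sign of Notch activity, did not change past the threshold. It read 8.45, 8.11, 8.30 and 8.23 in dispersed myoblasts at 48 hr and 8.39, 8.50, 8.41 and 8.65 at 72 hr (change 0.22, 95% interval 0.02 to 0.41, adjusted p = 0.104). In myofiber-associated myoblasts it read 9.14, 9.66, 9.01 and 7.54 at 48 hr and 9.33, 9.03, 8.88 and 10.25 at 72 hr (change 0.54, 95% interval -0.54 to 1.62, adjusted p = 0.412). The lowest of these values is again from the pooled array. Without that array the change was 0.11 (adjusted p = 0.815), and the difference between cultures at 48 hr moved from 0.56 (adjusted p = 0.251) to 0.998 (adjusted p = 0.00107), higher in myofiber-associated myoblasts.

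**Figure D3:**
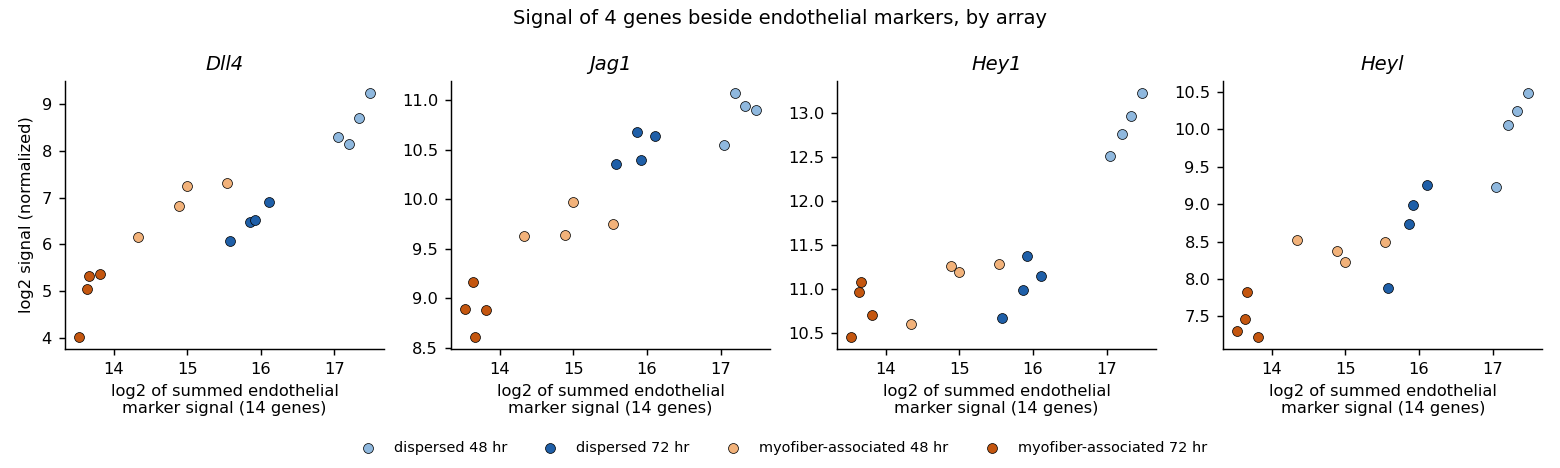
Normalized log2 signal of Dll4, Jag1, Hey1 and Heyl on each array against the log2 of the summed signal of 14 endothelial markers, colored by culture and time. The arrays with the most endothelial signal, dispersed at 48 hr (17.04 to 17.48), hold the highest values of all 4 genes apart from some overlap of Jag1 and Heyl with dispersed arrays at 72 hr. Myofiber-associated arrays had less endothelial signal at 72 hr (13.53 to 13.82) than at 48 hr (14.34 to 15.54). Dll4, Jag1 and Heyl were lower there at 72 hr without overlap, while Hey1 overlapped between the times.

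The interaction of culture and time passed the threshold for 2 of the 10 genes, Notch3 and Hey1, both below 0, where 3.45% of all genes passed, 2.36% below 0 and 1.09% above. With Notch1, 3 of the 10 met an adjusted p under 0.05, as did 15.4% of all genes. The median of the 10 genes was -0.33, against -0.07 over all genes. Notch3 stood below 0 because it was higher at 72 hr in myofiber-associated myoblasts, and Hey1 because it was lower at 72 hr in dispersed myoblasts. Without 1 array the count was 0 to 3. It was 0 without dispersed 48-hr replicate 4 or dispersed 72-hr replicate 2, and 1 without dispersed 48-hr replicate 3, dispersed 72-hr replicate 1 or 3, or myofiber-associated 72-hr replicate 1. The adjusted p was at most 0.0108 for Notch3 and 0.0124 for Hey1 in these fits, and the share of all genes called was 1.44% to 11.6%.

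The count in myofiber-associated myoblasts also leaned on single arrays. It was 0 without 48-hr replicate 1 or 72-hr replicate 3, 1 (Notch3) without 48-hr replicate 2 or 3 or 72-hr replicate 2, and 2 without 72-hr replicate 1, while the share of all genes called was 1.21% to 9.91%. Without the pooled 48-hr replicate 4 it was 3 (Notch3, Jag1 and Heyl). Across these fits the log2 change stayed between 1.35 and 1.60 for Notch3, between -0.95 and -0.77 for Jag1 and between -1.08 and -0.88 for Heyl.

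Of 59 other genes listed for the pathway, 54 were tested. In dispersed myoblasts 5 rose and 3 fell, with a median log2 change of 0.00, and in myofiber-associated myoblasts 5 rose and 2 fell, with a median of 0.06. For the interaction 2 were called, both below 0. Set beside these counts, 13.8%, 5.5% and 3.45% of all genes were called in the same comparisons. Notch4, the endothelial receptor, fell by 1.72 on the log2 scale in dispersed and by 1.91 in myofiber-associated myoblasts (adjusted p = 0.000193 and 0.00692). Nrarp, a feedback inhibitor and direct Notch target, changed by -1.80 (adjusted p = 0.000339) and -1.92 (adjusted p = 0.019), the second short of the threshold. Its probe was well above background on 3 of the 4 myofiber-associated arrays at 72 hr, with a log2 signal of 4.38 ± 0.53. Under the alternatives other than leaving out an array, its change in myofiber-associated myoblasts ran from -1.92 to -0.73. The Fringe glycosyltransferases, which set which ligand a receptor answers to, differed from each other. Mfng fell by 2.06 in dispersed and by 1.89 in myofiber-associated myoblasts (adjusted p = 0.000142 and 0.00455). In myofiber-associated myoblasts the fall of Mfng kept its call in 5 and that of Notch4 in 3 of 8 fits without 1 array (adjusted p up to 0.0203 and 0.0266).

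Lfng, in contrast, rose in myofiber-associated myoblasts, with log2 signals of 4.77 ± 0.18 before and 6.46 ± 0.51 after (mean ± SD of 4 arrays), a change of 1.69 (SE 0.24, adjusted p = 0.00403). It was 6.95 ± 0.37 and 6.64 ± 0.21 in dispersed myoblasts, a change of -0.31 (adjusted p = 0.257). Its difference between the cultures was -2.0 (SE 0.32, adjusted p = 0.00224). The rise kept its call in 2 of 8 fits without 1 array, those without replicate 4 of either time (adjusted p up to 0.0171). With normexp background correction the rise was 0.79 and the difference -1.02, both past the threshold. Hes6, a Hes family member known to promote myogenic differentiation rather than to report Notch activity, rose in both cultures, from 12.99 ± 0.21 to 15.64 ± 0.36 in myofiber-associated myoblasts (change 2.65, adjusted p = 0.000493) and from 13.63 ± 0.11 to 14.75 ± 0.23 in dispersed myoblasts (change 1.12, adjusted p = 0.000376). The rise was larger in myofiber-associated myoblasts (difference -1.53, SE 0.23, adjusted p = 0.00164). Lfng and Hes6 were the 2 other pathway genes called for the interaction.

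Dner, a transmembrane protein proposed as a Notch ligand, was well above background on 0 of the 4 myofiber-associated arrays at 48 hr and on all 4 at 72 hr. In the main processing it was at least 10.8-fold higher at 72 hr. For each 48-hr array this takes the lowest signal among probes well above background where that exceeded the probe's own. Under the alternatives other than leaving out an array, the measured log2 change ran from 1.57 to 4.60, so the bound depends on the processing. In dispersed myoblasts Dner was well above background on 2 of 4 arrays at 48 hr. It rose there by 2.51 (adjusted p = 0.000133), or by 1.1 with normexp background correction. Maml3, a coactivator of the Mastermind family, rose by 1.5 in myofiber-associated myoblasts (adjusted p = 0.00248) and changed by 0.50 in dispersed myoblasts (adjusted p = 0.0295). Aph1b, a subunit of the cleaving gamma-secretase, rose by 0.83 and 0.40, in the same order (adjusted p = 0.00531 and 0.00933). Without 1 array Aph1b kept these calls in 2 of 8 and 1 of 8 fits, and with the mean of its probes the first value was 0.41 (adjusted p = 0.0827). Dlk2 and Rita1 rose in dispersed myoblasts by 0.54 and 0.37 (adjusted p = 0.00104 and 0.0015), the latter by 0.18 with the mean of its probes (adjusted p = 0.0323). In myofiber-associated myoblasts Dlk2 and Rita1 changed by 1.07 and 0.50 (adjusted p = 0.0195 and 0.0349), both short of the threshold. None of the 4 ligand ubiquitin ligases and none of the 8 genes of inhibition and turnover, Numb among them, passed the threshold in either culture. Over all genes 13.8% were called in dispersed and 5.5% in myofiber-associated myoblasts, so counts over so few genes cannot show that these classes stayed still.

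**Figure D4:**
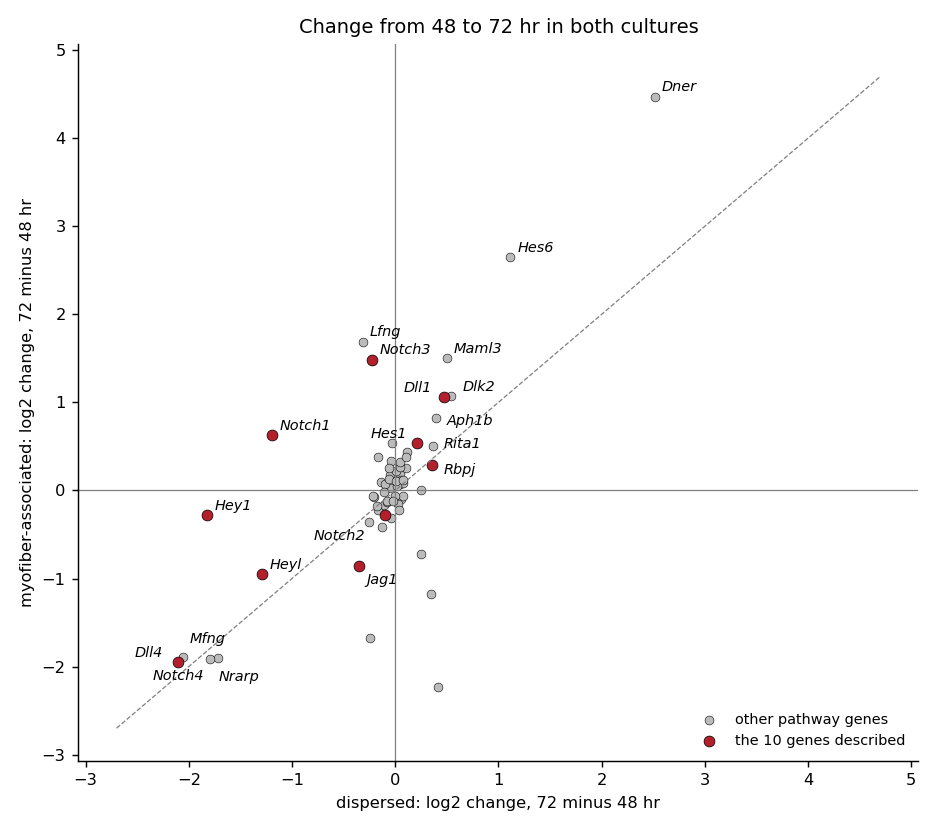
Log2 change from 48 to 72 hr in dispersed (x axis) and myofiber-associated myoblasts (y axis) of the 10 genes (red) and of 54 other pathway genes (grey), with equal change on the dashed line; the 10 genes and those called in a culture or for the interaction are named. Dll4, Mfng, Nrarp and Notch4 lie together at the lower left, Notch3 and Lfng lie near 0 in dispersed and above 1 in myofiber-associated myoblasts, and the value of Dner in myofiber-associated myoblasts is a measured mean with 48-hr arrays under background.

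Levels differed between the cultures for several genes, with the limit that culture and slide cannot be told apart. At 48 hr 6 of the 10 genes were lower in myofiber-associated than in dispersed myoblasts, namely Notch3, Dll1, Dll4, Jag1, Hey1 and Heyl, where 43.2% of all genes were called, 27.1% as lower and 16.1% as higher. With Rbpj, 7 of the 10 met an adjusted p under 0.05, as did 59.5% of all genes. The median difference of the 10 genes was -0.97, against -0.12 over all genes. The differences at 48 hr were -1.76 for Notch3, -0.83 for Dll1, -1.70 for Dll4, -1.12 for Jag1, -1.79 for Hey1 and -1.60 for Heyl, with adjusted p of at most 0.00661 and no overlap between groups in any of them, as for 56% of all genes. Dll1 kept this call in 1 of the 8 fits without 1 array (adjusted p up to 0.0203). Notch1 was not called at 48 hr with its brighter probe (-0.37, adjusted p = 0.344). Its dimmer probe had a mean of 3.52 in myofiber-associated against 5.81 in dispersed myoblasts. Under the alternatives other than leaving out an array, the Notch1 difference ran from -1.33 to -0.28 and was called in 1 of 8.

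At 72 hr 3 genes were lower in myofiber-associated myoblasts, Dll4 (-1.55, adjusted p = 0.00495), Jag1 (-1.63, adjusted p = 7.26e-05) and Heyl (-1.26, adjusted p = 0.00828), and Notch1 was higher (1.45, adjusted p = 0.00248), where 27.2% of all genes were called, 15.6% as lower and 11.5% as higher. With Notch2, Hes1 and Rbpj, 7 of the 10 met an adjusted p under 0.05, as did 45.8% of all genes, and the groups of these 7 did not overlap, as for 46.5% of all genes. The median of the 10 genes was -0.31, against -0.02 over all genes. Notch3 and Hey1 differed by -0.05 (95% interval -0.50 to 0.40) and -0.25 (95% interval -0.67 to 0.17) at 72 hr, down from the differences of 48 hr. The higher value of Notch1 rests on its brighter probe. The dimmer one read lower in myofiber-associated than in dispersed myoblasts at 72 hr on every array, and with the mean of both probes the difference was 0.20 (adjusted p = 0.465). Without dispersed 72-hr replicate 2, 3 or 4 or myofiber-associated 72-hr replicate 1 the count of 4 fell to 2, Notch1 and Jag1. The share of all genes called also fell in these fits, from 27.2% to 16.1%, 16.1%, 22.8% and 22%. Over the 8 fits without 1 array Heyl kept this call in 1 (adjusted p up to 0.0244) and Dll4 in 4 (adjusted p up to 0.0167). The endothelial markers were lower in myofiber-associated myoblasts for 13 of 14 genes at both times, with median differences of -2.60 and -3.43. Of the 9 pericyte and smooth muscle markers 5 were lower at 48 hr and 4 at 72 hr (medians -2.04 and -0.97). Their summed log2 signals at 48 hr were 13.41 to 13.76 against 16.26 to 17.02 in dispersed myoblasts. At 72 hr these sums were 13.25 to 13.74 against 16.84 to 17.66. Differentiating muscle markers were higher for 10 of 12 at both times (medians 5.79 and 3.95). At 48 hr 1 of them was lower, and single differences ran from -3.46 to 8.78. The part of these markers in the differences of the 10 genes was not tested. With normexp background correction the difference of Dll4 at 72 hr was -0.70, still past the threshold.

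**Figure D5:**
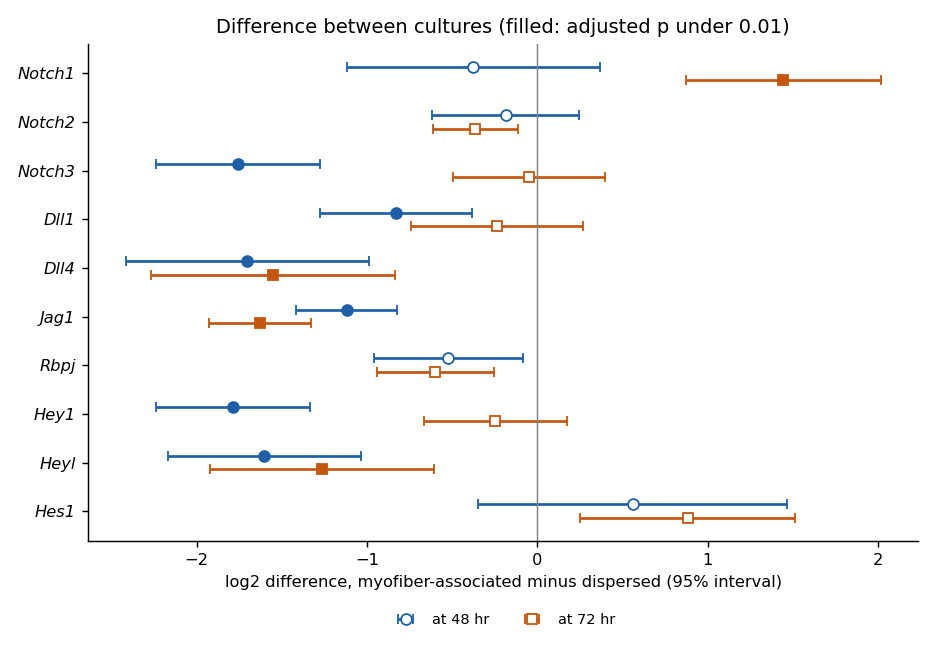
Log2 difference of myofiber-associated minus dispersed myoblasts for the 10 genes with its 95% interval from limma, at 48 hr (blue circles) and 72 hr (orange squares), filled where the adjusted p was under 0.01. Jag1 (-1.12 and -1.63), Dll4 and Heyl stay below 0 at both times, while Notch3 moves from -1.76 to -0.05 and Hey1 from -1.79 to -0.25.

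For each of the 5 genes called within a culture or for the interaction, the nearest genes over the 16 arrays were sought by the root mean square difference of log2 values after each gene's own mean was taken off. For Notch3 they were Myo1d (0.157) and Arhgef26 (0.195), where the values of Notch3 itself scatter by 0.751 on the same measure. For Dll4, which scatters by 1.37, they were Nrarp (0.357) and Galnt15 (0.359). Those of Hey1 were Rnf125 (0.236) and Sez6l2 (0.251), those of Heyl C1qtnf5 (0.215) and Pde1b (0.216), and those of Jag1 H2-DMb1 (0.215) and Prkcdbp (0.224). These genes share the arrays and their normalization, and the distances are a description.

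Promoters are printed for Dll4, Jag1 and Notch3, which changed within a culture and have an entry. They are the 250 bases before the start of the gene in RefSeq on build GRCm38.p6, whose table matched 7 of the 10 genes. The promoters of Hey1, Heyl and Hes1 were not analysed here. Capitals mark matches to CACGNG (reverse strand CNCGTG) and CACNAG (reverse strand CTNGTG), which are boxes of Hes and Hey proteins, and both overlap where the letters are CACGAG.
Dll4 (chr2:119325534-119325783, plus strand): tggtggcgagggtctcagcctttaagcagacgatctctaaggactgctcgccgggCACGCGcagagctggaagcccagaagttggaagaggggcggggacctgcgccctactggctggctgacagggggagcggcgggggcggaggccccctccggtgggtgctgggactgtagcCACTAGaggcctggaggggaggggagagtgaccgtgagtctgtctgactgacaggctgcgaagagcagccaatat
Jag1 (chr2:137116521-137116770, minus strand): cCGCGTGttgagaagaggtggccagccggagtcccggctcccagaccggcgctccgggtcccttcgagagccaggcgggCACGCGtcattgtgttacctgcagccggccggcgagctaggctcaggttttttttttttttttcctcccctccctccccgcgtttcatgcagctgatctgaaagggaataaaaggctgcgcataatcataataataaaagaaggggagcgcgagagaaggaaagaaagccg
Notch3 (chr17:32166891-32167140, minus strand): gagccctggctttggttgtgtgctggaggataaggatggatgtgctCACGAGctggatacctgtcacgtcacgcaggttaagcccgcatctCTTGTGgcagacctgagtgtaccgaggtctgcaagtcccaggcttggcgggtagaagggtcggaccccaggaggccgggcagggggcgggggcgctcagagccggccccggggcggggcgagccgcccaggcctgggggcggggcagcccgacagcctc
Of the 32851 RefSeq windows of this length 23.5% held CACGNG and 36.7% held CACNAG on either strand. The RBPJ letters GTGGGAA (reverse strand TTCCCAC) were in 5.42% of all windows and in none of the windows of the 7 matched genes. Such matches are descriptions of letters.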

How the data were processed

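Expression was measured on 16 one-color Agilent arrays. Per the file headers, the authors deposited output of Feature Extraction 11.0.1.1 with a background-corrected fluorescence intensity for each spot. The authors also deposited 8 columns of log2 ratios, 72-hr arrays over the mean 48-hr signal of the same culture, loess- and quantile-normalized per their methods. This served as an alternative, and its log base was checked against the scanner values (slope 0.918 and 0.934 over 20209 genes, column medians between -0.00231 and 0.064).

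Following those methods, the log2 of each intensity was taken without outlier spots, fitted by loess (span 0.3, 4 iterations) against the mean 48-hr array of the culture, and quantile-normalized over all arrays. Identical probes were averaged and the brightest probe stood for its gene, provided its median log2 signal was 5 or more. limma took the place of the samr package, and every probe was also fitted alone. Times were compared within each culture (8 arrays), cultures within each time (8 arrays), and the interaction on all 16. The fitting code was tested on simulated data.

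Genes were named by a rule that takes the 10 genes, other pathway genes called in a culture or for the interaction, the first 4 genes of a marker list, and the 2 nearest genes of each called gene. The first myoblast markers are named only as present. The members, lists and tests were chosen with earlier results of these data known, and the study itself discusses some of these genes, so counts over them are not independent evidence.

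Alternatives changed the background correction (normexp, offset 50), the normalization (75th percentile or quantile alone), the filter (none, or well above background), the probes (mean of all), the model (slide row as block, or all arrays together), the threshold (0.05) and the source (deposited ratios), and left out each array. Signal over background and the number of arrays limit the precision. The software was Python 3.11.15 with pandas 2.3.3 and matplotlib 3.10.9, and R 4.3.3 with limma 3.58.1 and the package data.table (version 1.17.8).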

Additional observations from a re-analysis of the deposited data

Results flagged for a closer look

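The log2 signal of Hey1 on replicate 3 of the myofiber-associated 48-hr arrays, 10.60, lay apart from the other 3 arrays of its group (11.20 to 11.28). It was the 1 array set apart in this way among 40 groups of 4 values, where chance sets apart about 1 group in 20.

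The change from 48 to 72 hr differed between the cultures for 4 genes of the pathway, given as the dispersed minus the myofiber-associated log2 change with limma's adjusted p for the interaction. The differences were -1.71 for Notch3 (adjusted p = 0.0039), -1.54 for Hey1 (adjusted p = 0.0047), -2.0 for Lfng (adjusted p = 0.00224) and -1.53 for Hes6 (adjusted p = 0.00164). Those of Lfng and Hes6 passed the threshold in all 16 fits without 1 array, that of Notch3 in 13 and that of Hey1 in 10. That of Lfng was -1.02 with normexp background correction.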

How the results depend on the processing

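Of 616 values of single genes under alternatives other than leaving out an array, 566 kept their direction and side of the threshold, 28 lost and 21 gained a call, and 1 changed sign, the Dll1 difference between cultures at 72 hr with the mean of all probes (0.070). That mean takes in the Dll1 probe that was not well above background on any array. Of 664 without 1 array 571 kept both, 76 lost and 9 gained a call, and 8 uncalled values changed sign. These belonged to the interaction for Dll4 (-0.46 to 0.10 without 1 array), Hes1 (-0.60 to 0.11) and Rbpj (-0.12 to 0.20), and to the difference between cultures at 72 hr for Notch3 (-0.18 to 0.068).

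Of the 10 genes, 4 were called in dispersed myoblasts with the slide row as a block, 5 with the deposited ratios and 6 at a threshold of 0.05, against 2, where 15.5%, 18.4% and 26.9% of all genes were called, against 13.8%. The deposited ratios set 72-hr arrays against a fixed 48-hr mean, so their p-values leave out the spread of the 48-hr arrays. With no filter on low signal 1 was called in myofiber-associated myoblasts, 1 for the interaction and 2 between cultures at 72 hr, with 1.36%, 1.18% and 13.7% of all genes. A threshold of 0.05 gave 7 at 72 hr, with 45.8% of all genes. Without 1 array the counts were 2 to 3 in dispersed myoblasts, where 8.2% to 12.2% of all genes were called. They were 0 to 3 in myofiber-associated myoblasts (1.21% to 9.91% of all genes) and 0 to 3 for the interaction (1.44% to 11.6%). Between cultures they were 5 to 7 at 48 hr (31.3% to 54.9%) and 2 to 4 at 72 hr (16.1% to 27.8%). The cause of the shifts in these counts was not tested. One fit of all arrays moved the other pathway genes called from 7 to 22 of 54 in myofiber-associated myoblasts, and all genes called from 5.5% to 28.5%. No paired analysis was possible because the replicate numbers were given in accession order and link no arrays across groups. Dll4 and Nrarp at 72 hr and Dner at 48 hr in myofiber-associated myoblasts lay at the edge of background.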
